A study of Mus musculus with 8 samples.

Results

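MPP D is a class of multipotent progenitors (MPPs) from mouse bone marrow that the authors named from RNA alone, and it holds 265 of the 22602 annotated cells. Its members were the cells carrying that RNA class name, so none of the surface protein values below took part in choosing them. The cells came from C57Bl/6 mice of the FlkSwitch genotype, both Young (2 to 3 months) and Old (20 to 24 months), and 123 of the MPP D cells were Young and 142 Old. In FlkSwitch mice a Cre recombinase driven by Flk2 regulatory elements turns a Tom reporter irreversibly into GFP, so GFP records past Flk2 expression rather than present expression, and all groups carry this allele. Marrow of the hind limb bones was enriched for c-Kit (CD117) and sorted as lineage-negative, c-Kit-positive cells in a CD150-negative and a CD150-positive fraction, and 8 libraries were made. The sort held every class to high CD117 and low lineage staining. The rat lineage antibodies and the sorting antibodies to CD117 and CD150 were also already on the cells when the tagged antibodies were added.

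MPPs lie downstream of hematopoietic stem cells (HSCs) and can still form myeloid and lymphoid cells, but sustain blood formation only for a limited time. In mouse marrow they are usually found among lineage-negative cells that carry both Sca-1 and CD117, and CD48, CD150 and the cytokine receptor Flk2 (CD135) divide them further. Loss of CD150 and gain of CD48 accompany the step from HSC to MPP, and loss of Sca-1 with gain of the Fc receptors CD16/32 accompanies the step to granulocyte and monocyte progenitors (GMPs).

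Surface proteins were read as antibody-derived tags (ADTs), which are counts of the barcodes of 35 antibodies on each cell. The deposited score divides a count by the geometric mean of the cell's counts plus 1 and takes the logarithm of 1 plus the quotient 2 times. A difference of scores is therefore not a fold change, and scores of different antibodies are not amounts that can be ranked against each other. MPP D cells had a median of 2513 ADT counts (320 to 5962), 20278 RNA molecules and 4239 genes. Median ADT depth of the compared classes ran from 1173 in HSC and 1331 in MPP C to 3051 in Lymphoid A. The deposited names place each cell in 1 of 16 cell groups, each a letter (A to D) and a number (1 to 4), with numbers 1 and 2 Young and 3 and 4 Old. How the letters and numbers relate to animals, libraries or sort fractions is not given in the sources used here, so a difference between ages and one between cell groups cannot be told apart. For this reason no p-value is given, and differences were taken within cell groups or letters. A protein was called different where the difference had the same sign in every cell group or letter and its mean exceeded its SD over them. Of the MPP D cells, 253 lay in numbers 1 and 3, in cell groups of 18 to 54 cells, whereas 146 of the 189 HSC lay in number 4. The letters were not alike in this respect, since number 4 held 64 HSC in letter A and 58 in B, against 10 in C and 14 in D. Of all barcodes, 52 occurred in more than 1 cell group, none of these within a letter, and 1 MPP D cell carried such a barcode. Doublet removal is not described in the sources used here, and no cells were removed as doublets.

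The protein profile of MPP D was dominated by 5 antibodies. CD44, the hyaluronan receptor, took 33.4% of all ADT counts on MPP D cells, followed by CD48, a receptor of the SLAM family, with 22.9%. CD117, the receptor for stem cell factor, took 10.3%, CD27, a receptor of the tumor necrosis factor receptor family, 10.1%, and the homing receptor CD62L (L-selectin) 9.28%. All 265 cells had at least 1 count of each of these. The next largest shares belonged to MHCII with 1.93%, CD79b with 1.77% and CD54 with 1.64%.

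**Figure D1:**
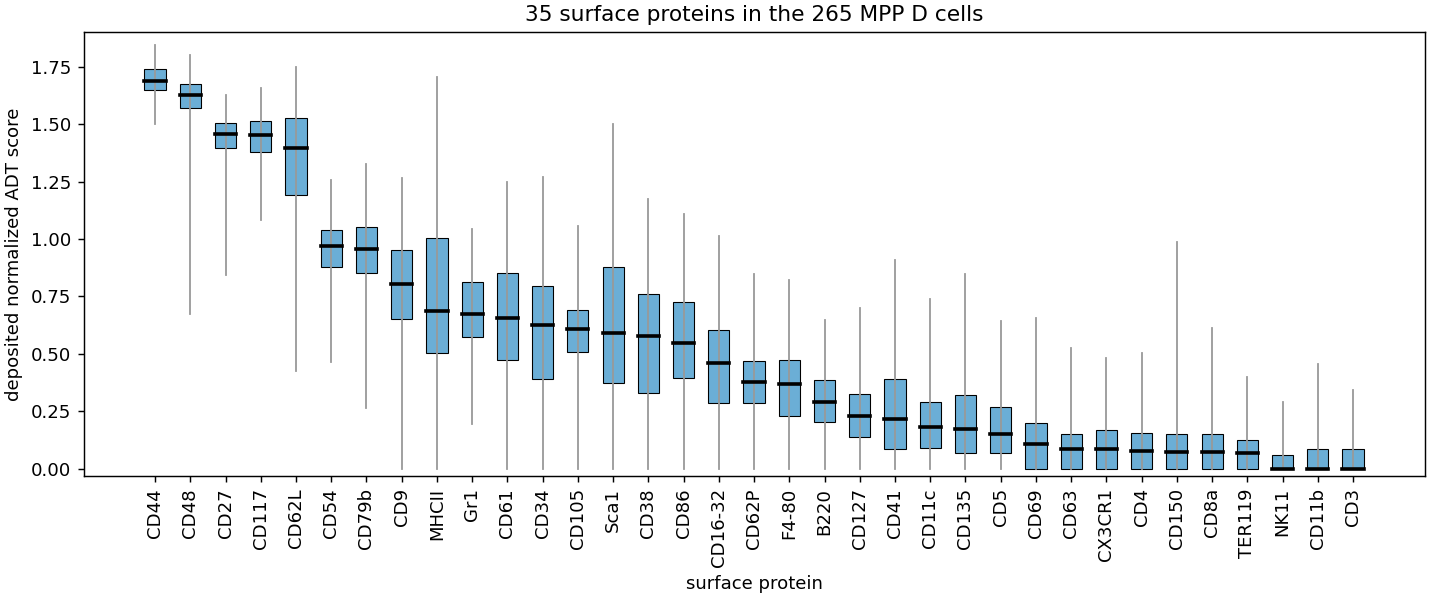
Deposited ADT score (y axis, no unit, logarithm taken 2 times) of the 35 antibodies (x axis) in the 265 MPP D cells, with a thin line from the lowest to the highest cell, a bar from the first to the third quartile and a tick at the median. CD44, CD48, CD117 and CD27 lie in narrow bars above a score of 1, while Sca1 spans 0 to 1.5.

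The markers given for the class, CD117, CD48 and CD27, each had at least 1 count on every MPP D cell. The lowest CD117 score was 1.08, the median 1.45 and the highest 1.66. CD48 ran from 0.673 to 1.80 with a median of 1.63, and CD27 from 0.843 to 1.63 with a median of 1.46. The 3 markers did not set MPP D apart from all other classes, however. Among all 21 RNA classes the mean of MPP D ranked 2 for CD27, next to MPP B, 5 for CD48 and 13 for CD117.

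Antibodies against mature lineages gave little signal on MPP D. CD3, CD11b and NK11 (NK-1.1) had a median score of 0, and 4 T cell antibodies together took 0.212% of the ADT counts (0.171% to 0.252% by letter). NK11 took 0.0149% and the erythroid antibody TER119 0.0371%. Of the B cell pair, B220 took 0.178% and CD79b, named above, the larger share, and CD79b had a count on every MPP D cell and was likewise high in the other progenitor classes. The 6 myeloid and dendritic antibodies took 3.16% (1.97% to 4.63%) and the 3 megakaryocytic antibodies CD41, CD61 and CD62P 1.20% (0.989% to 1.37%). CD150, the SLAM receptor that marks HSCs, took 0.0644%.

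To ask which surface phenotype the RNA class would have under flow-style gates, the score limits that the study set for other cells were applied. All 265 MPP D cells were above 1 for CD117, and 261 (98.5%, exact 95% interval 96.2% to 99.6%) were above 1.1 for CD48. Only 10 cells (3.77%, 1.82% to 6.83%) were above 0.45 for CD150. These intervals cover counting error only. Thus, MPP D was almost uniformly CD48-positive and CD150-negative.

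Sca-1 (the antibody Sca1) was the gating protein that split the class. Of the MPP D cells, 99 (37.4%, 31.5% to 43.5%) reached the limit of 0.71 and 166 (62.6%) did not. The share was 35.8% in Young and 38.7% in Old cells, with overlapping intervals (27.3% to 44.9% and 30.7% to 47.3%). Over the letters it was highest in B (53.3%), followed by A (42.4%), D (31.6%) and C (25.4%). The score had no gap at the limit, since 44 cells (16.6%) lay within 0.1 of it, and the share ran from 28.7% to 45.3% when all limits were moved by that distance. After thinning every cell to 300 ADT counts, 18.9% reached the same limit, which was set on scores at full depth. Whether it marks the same level on thinned cells was not tested.

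The combination CD117+ Sca1+ CD48+ CD150-, which is the usual phenotype of CD48-positive MPPs without CD150, therefore held 89 MPP D cells (33.6%, 27.9% to 39.6%), 33.3% of Young and 33.8% of Old cells. The HSC phenotype CD117+ Sca1+ CD48- CD150+ held 2 of 265 (0.755%), against 70.9% of HSC. The share of Sca1+ cells placed MPP D between the other classes. It was 94.2% in HSC, 74.7% in MPP A, 71.6% in Lymphoid A and 44.2% in MPP B. Below MPP D it was 29.8% in Lymphoid B, 6.24% in Lymphoid C, 3.54% in MPP C and 0.924% in GMP/Neut progenitor A. The intervals of MPP D and MPP B (40.3% to 48.1%), and of MPP D and Lymphoid B (25.7% to 34.1%), overlapped.

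**Figure D2:**
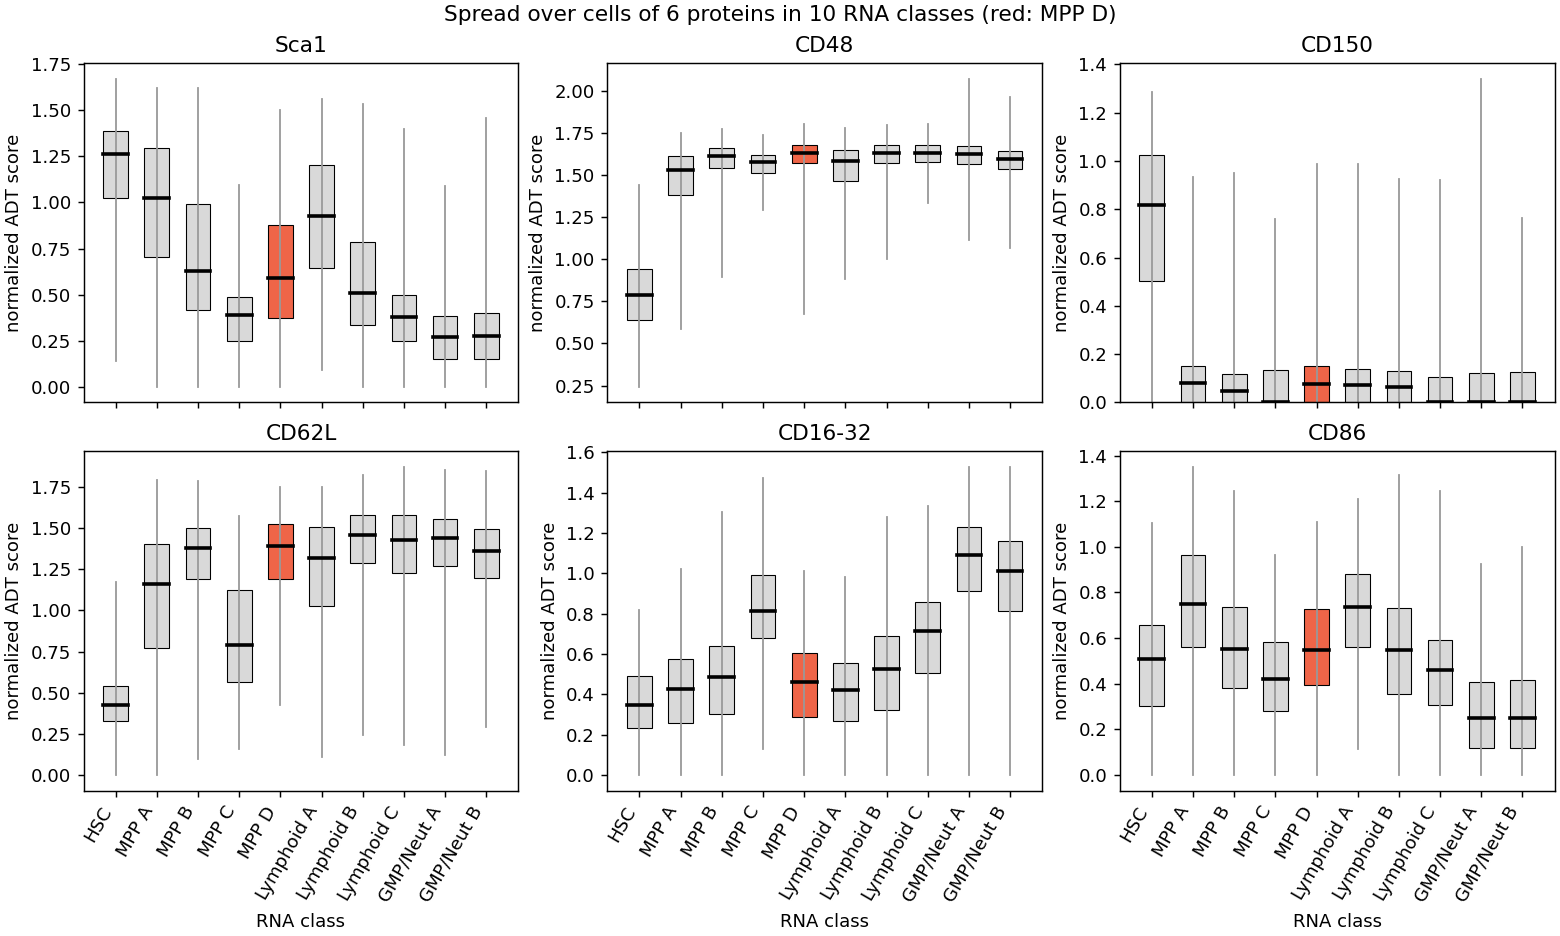
Deposited ADT score (y axis, no unit) of 6 antibodies in MPP D (red) and the 9 compared RNA classes, with a thin line from the lowest to the highest cell, a bar between the quartiles and a tick at the median. MPP D lies with the other progenitors and far from HSC for CD48, CD62L and CD150, and between MPP A and GMP/Neut progenitor A for Sca1. For CD16-32 it lies near MPP A and below GMP/Neut progenitor A.

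Of the 9 compared classes, HSC was the farthest from MPP D over the 35 mean scores of pooled cells (Euclidean distance 1.81). Of all annotated classes only Ery A, Ery B, Ery C and Ery 4 were farther on these pooled means (2.24 to 2.53). In the only cell group with 10 cells of both, HSC lay at 1.505. Mean distances within cell groups were larger for the class named unknown (1.69), Early Ery progenitor A (1.74) and Early Ery progenitor B (1.94). Too few cell groups held 10 cells of MPP D and of HSC, so Old cells were compared within each letter. In all, 21 of 35 proteins were called (60% of those tested), 11 higher (31.4%) and 10 lower (28.6%) in MPP D. The same sign is easier to reach over 4 letters than over the 8 cell groups used for the other classes. This count is therefore not directly comparable with theirs. Since most MPP D cells were of number 3 and most HSC of number 4, a difference between the classes and one between these cell groups cannot be told apart. CD62L was 0.864 ± 0.105 (SD, n = 4 letters) higher in MPP D, with 0.890, 0.824, 0.748 and 0.995 in letters A to D. CD48 was 0.808 ± 0.0736 higher, with 0.775, 0.822, 0.904 and 0.732 in the same order. For both, the distributions were nearly separate, since a MPP D cell taken at random scored above a HSC of the same letter with probability 0.986 for CD62L and 0.991 for CD48. CD27 followed with 0.381 ± 0.0485, the sialomucin CD34 with 0.333 ± 0.0654 and CD44 with 0.200 ± 0.0401. CD135 (Flk2) was higher by 0.103 ± 0.0371, but by 0.0171, and no longer called, after thinning to 300 ADT counts.

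CD150 was lower in MPP D than in HSC by a mean of -0.691 ± 0.112, with -0.625, -0.566, -0.796 and -0.775 in letters A to D. CD61, the beta subunit of platelet integrins, differed by -0.634 ± 0.0423, and its partner CD41 by -0.275 ± 0.0508. Sca1 differed by -0.497 ± 0.0185 and was the most even of these, with -0.502, -0.470, -0.514 and -0.501 over the letters. CD38 differed by -0.396 ± 0.0743. CD117 was called but small, at -0.0187 ± 0.0187. The Fc receptor antibody CD16-32 was higher in MPP D by 0.128 ± 0.0356 on the deposited score and not after thinning (-0.00448). The HSC-associated list (CD150, Sca1, CD105, CD38, CD117, CD41, CD27) was called in 7 of 7, with 6 lower and CD27 higher, and its median difference was -0.275 beside 0.00556 for all 35 proteins. The megakaryocyte and platelet list was called in 4 of 6, all lower (median -0.226), and the mature lymphoid list in 1 of 7.

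Shares of cells with a count show the same order. CD150 was counted on 58.1% of MPP D cells (51.9% to 64.1%) and 97.4% of HSC, and on 15.1% and 86.8% after thinning to 300 counts. CD135 was counted on 78.5% of MPP D cells at a median depth of 2513, and on 41.8% of HSC at a median depth of 1173. Thinned, CD135 was found on 29.4% of MPP D cells, 12.7% of HSC and 9.45% of the erythroid class Ery C, which is taken as background here. CD127, the interleukin-7 receptor, was found on 32.8% of thinned MPP D cells and on 51.9% of thinned HSC, so thinned MPP D cells did not carry it more often than HSC.

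Against MPP A, the MPP class with the highest Sca1 score, MPP D differed in 9 proteins (25.7%), 6 higher (17.1%) and 3 lower (8.57%), in the 8 cell groups of numbers 1 and 3. Sca1 was lower by a mean of -0.349 ± 0.0874 (SD, n = 8 cell groups), from -0.479 to -0.225. CD86, a costimulatory ligand, was lower by -0.183 ± 0.0352, and MHCII (I-A/I-E), which presents antigen, by -0.127 ± 0.0487. CD62L was higher by 0.245 ± 0.0548, CD48 by 0.150 ± 0.0313 and CD61 by 0.118 ± 0.0457, each in all 8 cell groups. The Sca1 difference held in Young (-0.389 ± 0.113) and Old (-0.310 ± 0.0286) cell groups. The smaller differences of CD117 (0.0395) and CD27 (0.0397) turned to -0.0456 and -0.0394 when log2 of counts per 1000 was used in place of the score.

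MPP D and MPP B were hardly separable by these antibodies. Only 3 proteins were called (8.57%), 2 higher (5.71%) and 1 lower (2.86%), and all were small. Sca1 was lower in MPP D by -0.0694 ± 0.0428, from -0.151 to -0.0120, while CD48 was higher by 0.0346 ± 0.0219 and CD44 by 0.0216 ± 0.0152. A MPP D cell scored above a MPP B cell of the same cell group with probability 0.449 for Sca1 and 0.637 for CD48, where 0.5 means no separation. The count was 1 in place of 3 under several other ways of computing it.

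Against MPP C, 14 proteins were called (40%), 10 higher (28.6%) and 4 lower (11.4%) in MPP D. The Sca1 score of MPP D lay above that of MPP C and below that of MPP A, whereas CD62L was higher in MPP D than in both. CD27 was also higher than in both on the deposited score, but its small difference from MPP A turned sign on the other scale given above. CD62L was higher by 0.50 ± 0.124 (0.279 to 0.722), Sca1 by 0.261 ± 0.0691, CD34 by 0.223 ± 0.0611 and CD27 by 0.173 ± 0.0754. CD16-32 was lower by -0.383 ± 0.125 (-0.627 to -0.192), the tetraspanin CD9 by -0.336 ± 0.0887, CD41 by -0.182 ± 0.0725 and the tetraspanin CD63 by -0.154 ± 0.0698. CD105 (endoglin) was higher by 0.170 ± 0.0534 and CD135 by 0.169 ± 0.0778, but neither was called after thinning, when CD105 differed by 0.0160 and CD135 by 0.0738. MPP C cells carried fewer ADT counts than MPP D (median 1331 against 2513), and the part of depth in the other differences was not tested beyond these recomputations.

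**Figure D3:**
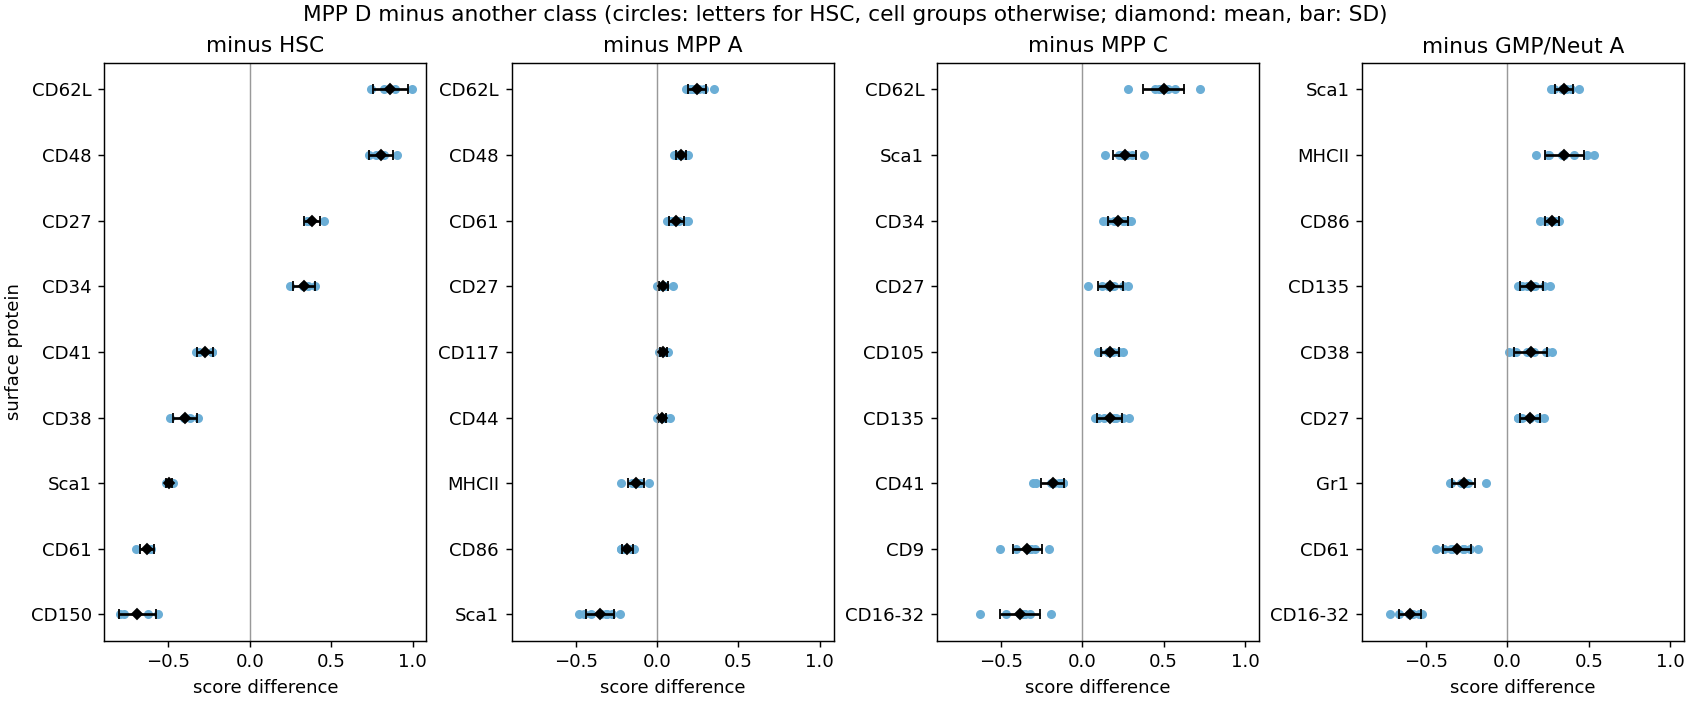
MPP D minus class in mean ADT score (x axis, no unit) for the 9 largest called differences from HSC, MPP A, MPP C and GMP/Neut progenitor A, with circles for letters (HSC) or cell groups, a diamond for their mean and a bar for the SD. All circles of a protein lie on 1 side of 0, which the call requires, and the largest values are those of CD62L, CD48 and CD150 against HSC.

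Against GMP/Neut progenitor A, 21 proteins were called (60%), 13 higher (37.1%) and 8 lower (22.9%) in MPP D. CD16-32, the Fc receptors used to define GMPs, was lower by -0.597 ± 0.0664 and lay between -0.720 and -0.527 in all 8 cell groups. A MPP D cell exceeded a cell of that class with probability 0.0511. CD61 differed by -0.307 ± 0.0857, the granulocyte antibody Gr1 by -0.269 ± 0.0690 and CD11b by -0.110 ± 0.0168. Sca1 was higher in MPP D by 0.350 ± 0.0549, MHCII by 0.350 ± 0.121, CD86 by 0.272 ± 0.0429, CD135 by 0.146 ± 0.0705 and CD38 by 0.143 ± 0.104. CD48 was not called, in either direction. GMP/Neut progenitor B gave 16 called proteins (45.7%) with the same leading members, CD16-32 at -0.524 ± 0.0646 and Sca1 at 0.343 ± 0.0484. The myeloid and dendritic list was thus split within itself, with 3 of 8 higher and 3 lower in MPP D than in either class.

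The 3 Lymphoid classes stood at different distances from MPP D. Against Lymphoid B a single protein was called (2.86%), CD79b, at -0.0638 ± 0.0300, and it was no longer called after thinning. Against Lymphoid A there were 6 (17.1%), with Sca1 lower in MPP D by -0.289 ± 0.0756, MHCII by -0.153 ± 0.0580, CD86 by -0.151 ± 0.0240 and CD34 by -0.109 ± 0.0603. Lymphoid C gave 13 (37.1%), with Sca1 higher in MPP D by 0.228 ± 0.0388 and CD135 by 0.114 ± 0.0683, and with CD16-32 lower by -0.241 ± 0.0742 and CD41 by -0.166 ± 0.0620. None of the 4 lymphoid priming proteins (CD135, CD127, CD27, CD62L) was called against Lymphoid A or Lymphoid B.

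Distances between mean profiles over the 35 antibodies gave the same picture. MPP D lay 0.145 from Lymphoid B and 0.148 from MPP B, then 0.408 from Lymphoid A, 0.459 from Lymphoid C and 0.528 from MPP A. GMP/Neut progenitor B at 0.892, MPP C at 0.932 and GMP/Neut progenitor A at 0.985 followed. HSC, at 1.81 over pooled cells, ranked 16 of the 20 other classes. Within cell groups the order of the first pair turned, with MPP B at 0.249 ± 0.0814 and Lymphoid B at 0.292 ± 0.101, a difference smaller than either SD. The proteins are not independent replicates, so these distances are a description.

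**Figure D4:**
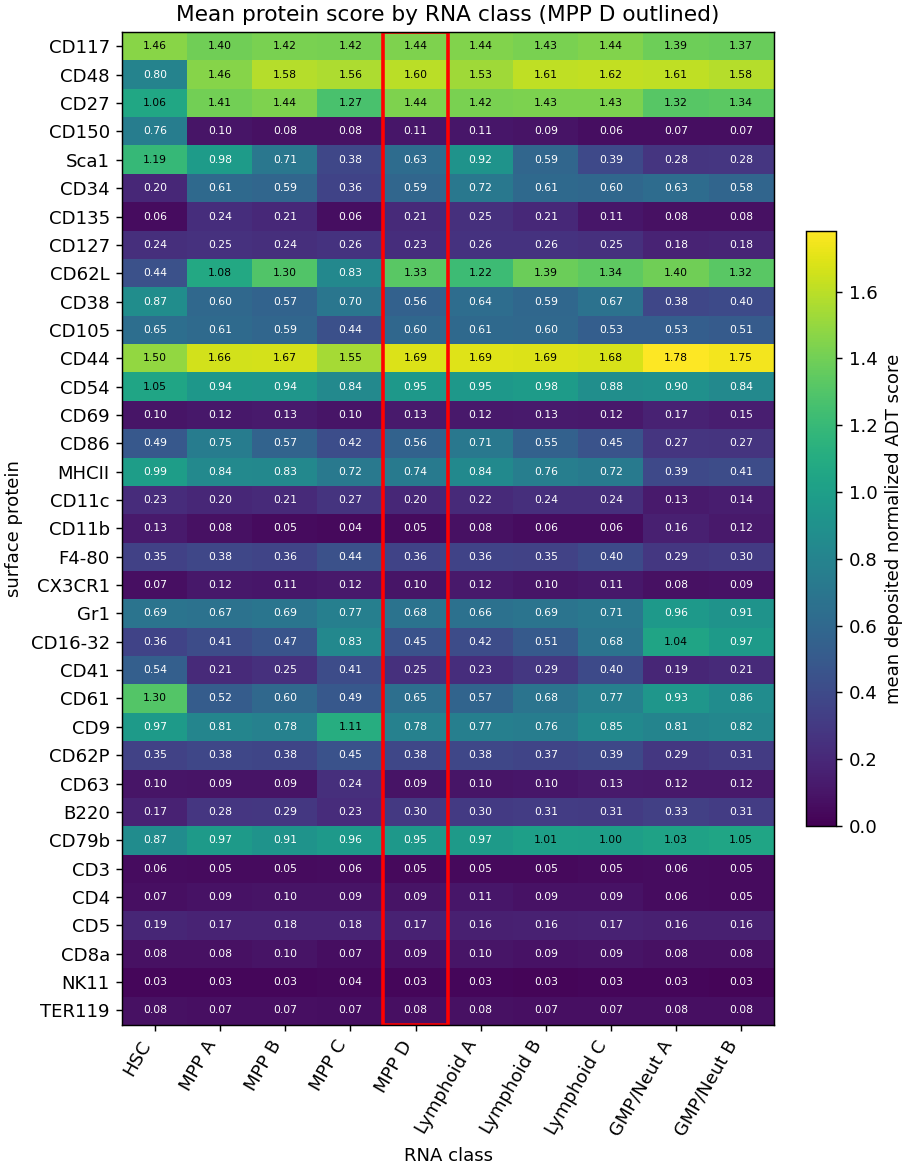
Mean deposited ADT score (color, no unit) of the 35 antibodies (rows) in MPP D (outlined) and the 9 compared RNA classes (columns). The column of MPP D is nearly that of MPP B and Lymphoid B, and HSC differs in the rows of CD48, CD62L, CD150 and CD61.

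Within MPP D, cells differed most in Sca1 (SD within cell groups 0.332), MHCII (0.277), CD38 (0.263) and CD62L (0.262). The 91 Sca1+ and 162 Sca1- cells of numbers 1 and 3 were compared as a description, since both share the normalization of the cell. Sca1+ cells had higher CD86 (0.206 ± 0.130, n = 8 cell groups), MHCII (0.131 ± 0.0758) and CD54 (0.0582 ± 0.0427), and lower CD62L (-0.179 ± 0.103), in all 8 cell groups. CD117 did not pass the same rule (-0.0357 ± 0.0405). Over the 253 cells, with the cell group means removed, Sca1 and CD86 had a Pearson correlation of 0.508. CD38 went with CD16-32 (0.620) and F4-80 (0.613), and CD135 ran opposite to CD9 (-0.548) and CD16-32 (-0.492), in all 8 cell groups each. Scores in a cell share 1 divisor and 1 depth. The correlation of CD44 with CD27, 0.578 on the score, was -0.0267 on log2 of counts per 1000, whereas Sca1 with CD86 was 0.555 on that scale.

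To ask how the surface of MPP D differed between ages, Old and Young cells were compared within each letter. In all, 17 of 35 proteins were called (48.6%), 8 higher (22.9%) and 9 lower (25.7%) in Old cells. The stem and multipotent gating list was called in 5 of 7, with CD117 higher and CD48, CD27, CD34 and CD135 lower in Old cells, and its median difference was -0.0655 beside 0.00149 for all 35 proteins. The myeloid and dendritic list was called in 5 of 8, with 3 higher, and the megakaryocyte and platelet list in 4 of 6, with 3 higher. The adhesion and activation list was called in 3 of 6, all lower, and the lymphoid priming list in 3 of 4, with CD127 higher by 0.0177 and CD135 and CD27 lower. The HSC-associated list was called in 3 of 7, the mature lineage list in 1 of 8 and the mature lymphoid list in none of 7.

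CD86, CD135 and CD48 were among the proteins with lower scores in Old cells. CD86 had mean scores of 0.690, 0.626, 0.626 and 0.647 in Young cells of letters A to D, against 0.477, 0.446, 0.490 and 0.513 in Old cells. All Old letters lay below all Young letters, and the difference was -0.166 ± 0.0378 (SD, n = 4 letters). CD135 had 0.276, 0.319, 0.253 and 0.236 in Young and 0.154, 0.207, 0.175 and 0.141 in Old cells, also without overlap, and differed by -0.102 ± 0.0196. It was the only one of the 3 that stayed called when each cell group weighed equally (-0.0699).

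CD48 was lower in Old cells by -0.0749 ± 0.0242, with 1.64, 1.67, 1.62 and 1.63 in Young and 1.59, 1.60, 1.55 and 1.52 in Old letters. The groups did not overlap. All 123 Young cells passed the CD48 limit of 1.1, as did 138 of 142 Old cells, and the 4 below it lay 1 in each letter. CD27 did not overlap either, with letters at 1.44 to 1.49 in Young and 1.37 to 1.43 in Old cells, a difference of -0.0655 ± 0.0360. Its call was lost when the cell groups of numbers 1 and 3 were used alone, with nearly the same value (-0.0633). CD34 was lower by -0.159 ± 0.101 and CD38 by -0.129 ± 0.0651. For CD34 the letters overlapped, since Young letter B (0.543) lay below Old letter C (0.564).

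MHCII gave the largest difference on the score, 0.305 ± 0.234 higher in Old cells, and it was uneven over the letters. Young cells had 0.532, 0.611, 0.613 and 0.492 in letters A to D, and Old cells had 1.07, 1.07, 0.653 and 0.672. Letters A and B together differed by 0.499 and letters C and D by 0.110. MHCII took 4.91% of the ADT counts of Old cells in letter A and 3.79% in B, against 1.09% in C and 0.914% in D. Young cells had 0.538%, 0.662%, 1.18% and 0.446% in letters A to D, so the share was not higher in Old cells of letter C. Without letter B the mean was 0.253 and no longer exceeded its SD. The dendritic and myeloid antibody CD11c was more even, with 0.157, 0.157, 0.126 and 0.119 in Young and 0.249, 0.290, 0.215 and 0.273 in Old cells, and a difference of 0.117 ± 0.0317 without overlap. Gr1 differed by 0.107 ± 0.0553, also without overlap, and CD117 by 0.0546 ± 0.0262 with overlapping letters. CD61 (0.0990 ± 0.0979) and CD9 (0.0837 ± 0.0548) were higher in Old cells as well. The 6 antibodies CD11b, Gr1, CD11c, F4-80, CX3CR1 and MHCII together took 1.74% of the ADT counts of Young MPP D cells (1.45% to 2.24% by letter) and 4.55% of those of Old cells (2.25% to 6.41%). The highest Young share and the lowest Old share were both those of letter C, where the ages were thus nearly level. Over the pooled cells, most of the gap was MHCII, which took 0.706% in Young and 3.12% in Old cells. Gr1 went from 0.558% to 0.941% and CD11c from 0.0697% to 0.182%, while F4-80 (0.314% in Young, 0.226% in Old) and CX3CR1 (0.0659% and 0.0514%) took smaller shares in Old cells. CD11b, which defines mature myeloid cells, stayed at a median score of 0.

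Sca1, CD150 and CD41, which define the HSC and megakaryocyte gates, were not called by age. Sca1 had 0.763, 0.635, 0.537 and 0.565 in Young and 0.707, 0.730, 0.541 and 0.564 in Old cells. CD41 was higher in Old cells of letters A (0.306 against 0.110) and B (0.332 against 0.202), and lower in C (0.239 against 0.264) and D (0.168 against 0.297). CD150 differed by 0.0260 ± 0.0502.

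**Figure D5:**
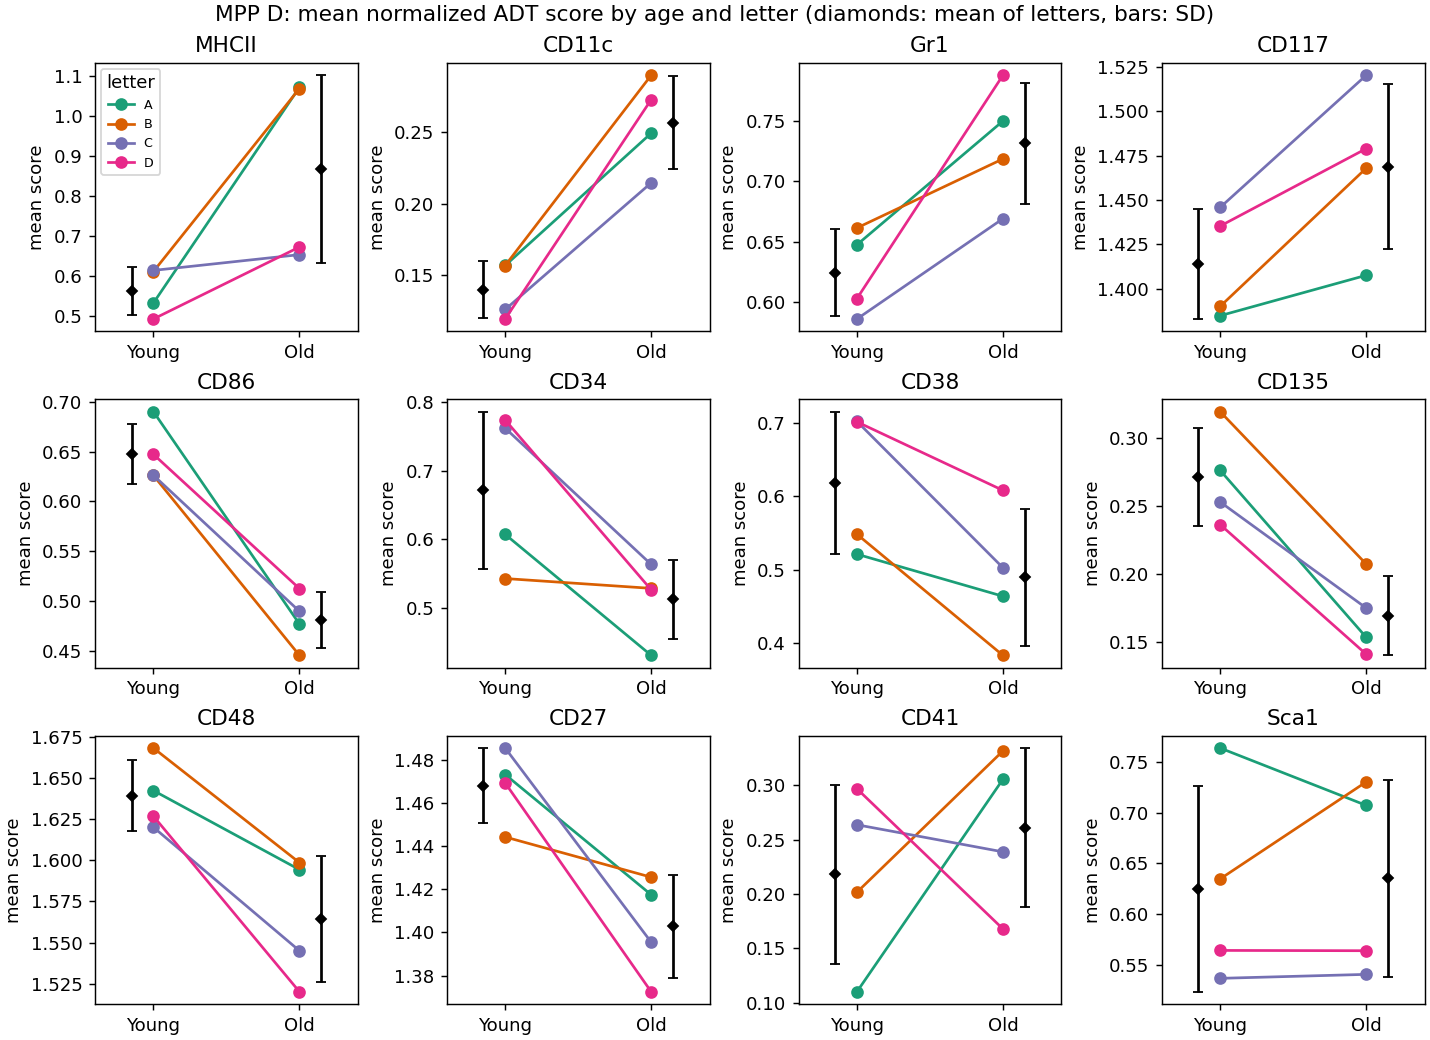
Mean ADT score (y axis, no unit) of 12 antibodies in Young and Old MPP D cells, with a line for each letter and a diamond with SD bar for the mean of the 4 letters. CD86, CD135, CD48 and CD27 are lower in all Old letters, MHCII is higher mainly in letters A and B, and the lines of CD41 cross.

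Young MPP D cells carried more ADT counts than Old ones (median 2794 against 2355). Over MPP D cells the score of CD86 had a correlation of 0.300 with the logarithm of ADT depth, CD135 0.259 and CD48 0.234. After thinning to 300 counts in both ages the differences were -0.133 for CD86, -0.0872 for CD135, -0.0692 for CD48, 0.320 for MHCII and 0.0524 for CD11c, all still called. F4-80 (-0.0985 ± 0.0734) and CD38 were not called after thinning, at -0.0317 and -0.0846. Young and Old cells were also composed of different cell groups, and weighting each cell group equally left 5 of the 17 calls, with cell groups of 1 to 4 cells then counting as much as those of 54.

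Many of these age differences were also called in other classes, which come from the same cell groups. In the 8 other classes with enough cells of both ages, CD86 and CD38 were called lower and CD11c higher in Old cells in 8 of 8, CD48 and CD34 lower in 7, and MHCII and Gr1 higher in 6. The rule called 40% of proteins in MPP B, 42.9% in MPP C, 45.7% in Lymphoid C, 48.6% in GMP/Neut progenitor B and 51.4% in each of the other 4 classes. CD135 was called lower in 2 and CD27 in none. The age difference of CD86 ran from -0.221 to -0.116 in these classes, around the -0.166 of MPP D, and that of CD48 from -0.0797 to -0.0445. HSC could not be compared by age, since only 17 of them were Young.

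The difference between age differences was then taken within letters, with the call rule applied to it. Between MPP D and Lymphoid B no protein was called (0%), and against MPP A and MPP B 3 each (8.57%). The counts were 4 (11.4%) against Lymphoid A, 5 (14.3%) against Lymphoid C and GMP/Neut progenitor A, 6 (17.1%) against MPP C and 8 (22.9%) against GMP/Neut progenitor B. How many such calls would arise over 4 letters with no difference between the classes was not tested. For CD135, the age difference of MPP D minus that of the other class was -0.0564 ± 0.0497 for MPP B and -0.124 ± 0.0326 for MPP C. It was -0.101 ± 0.0294 for Lymphoid C, -0.107 ± 0.0332 for GMP/Neut progenitor A and -0.104 ± 0.0242 for GMP/Neut progenitor B. Among these classes, only MPP B was itself called lower in Old cells (-0.0454). The others were not called, at 0.0223, -0.000866, 0.00513 and 0.00266 in the same order. CD135 was not called against MPP A, Lymphoid A or Lymphoid B, whose own CD135 differences were -0.0680, -0.0557 and -0.0621. CD27 differed likewise from GMP/Neut progenitor A (-0.109 ± 0.0374), GMP/Neut progenitor B (-0.0904 ± 0.0477), MPP A (-0.0369 ± 0.0367) and Lymphoid C (-0.0349 ± 0.0309). The MPP D cells are shared by all these comparisons. CD135 was found on 8.81% of thinned GMP/Neut progenitor A cells, at or below the share in Ery C.

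The reporter gave a readout that the antibodies did not. The authors called 254 of the 265 MPP D cells positive for Egfp, and 11 (4.15%, exact 95% interval 2.09% to 7.31%) negative. The negative cells were 2 of 123 in Young (1.63%, 0.198% to 5.75%) and 9 of 142 in Old mice (6.34%, 2.94% to 11.7%), and these intervals overlap. The share was higher in Old than in Young cells in every compared class as well. In MPP A the intervals were apart, at 1.88% (0.693% to 4.05%) in Young and 7.81% (4.90% to 11.7%) in Old cells. HSC were negative in 72.5% (65.5% to 78.7%), with 29.4% of the 17 Young (10.3% to 56.0%) and 76.7% of the 172 Old HSC (69.7% to 82.8%). MPP D thus lay with MPP A (4.59%), Lymphoid B (4.07%), MPP C (3.03%) and MPP B (2.52%), and not with HSC. Egfp-negative MPP D cells had a median of 17740 RNA molecules and positive cells 20359, and the part of RNA depth in the negative calls was not tested. The share of negative cells was 8.47% in letter C and 2.35% to 4.44% in the other letters.

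MPP D made up 1.17% (1.04% to 1.32%) of the annotated cells, 0.992% of Young and 1.39% of Old cells. How the sort and the number of cells loaded from each fraction bear on these shares was not tested. When the erythroid, MEP and MKP classes were left out of the denominator, the share was 2.90% of Young and 2.41% of Old cells, so the order of the ages turned. Of all annotated cells, MPP D was 0.675% in letter B and 1.29% to 1.45% in the other letters.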

How the data were processed

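The deposited data were 1 table of ADT counts for 22790 cells and 35 antibodies and 1 table of 22602 annotated cells, and only cells in the second were used. According to the deposited labels, counts were made with Cell Ranger on mm10, named in the submitters' processing notes, and library names map to no cell group. The authors removed cells with fewer than 200 genes and cells negative for both CD117 ADT and Kit RNA. The deposited score was rebuilt from the counts within 1e-08 for the annotated cells, with 2 logarithms. The percent of mitochondrial RNA was deposited as the authors computed it (median 3.08% in MPP D). RNA classes, ages and Egfp calls are the authors' annotations, and the annotation columns that cover megakaryocyte progenitors alone were not used.

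Differences of mean score were taken within cell groups with at least 10 cells of each class, or within letters for ages. They were averaged with their SD in Python 3.11.15 with numpy 2.4.6, pandas 2.3.3 and scipy 1.17.1, and drawn with matplotlib 3.10.9. The code that takes differences and applies the call rule was tested on real MPP B cells. They were split at random, and the counts of some antibodies were raised by a known fold in 1 part. Since the pooled cells count as 1 sample, no p-value was computed. HSC in Old cells within letters, and Lymphoid C, were added after seeing the data. Members, protein lists and rules were chosen with earlier results of these data known. Named proteins were CD117, CD48, CD27, 7 gating proteins (Sca1, CD150, CD135, CD34, CD16-32, CD127, CD41) and the 5 largest called differences in each direction. Others, such as the shares of counts, CD54, CD79b, B220, CD105 in the thinned comparison and CD11b, were named after their values were seen. Alternatives changed the scale, the centring, the summary, the cell minimum, the depth window, the thinning to 300 counts and the letters used.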

Additional observations from a re-analysis of the deposited data

Results flagged for a closer look

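In Old MPP D cells the mean NK11 score of letter B, 0.0233, stood apart below the other 3 letters, which lay between 0.0350 and 0.0372. This was 1 of 72 groups of 4 letters tested by its gap to the nearest letter, where chance alone picks out about 1 in 20. CD61 and CD135 had age differences of opposite sign in MPP D and MPP C. CD61 was higher in Old MPP D cells in all 4 letters (0.00933 to 0.228) and lower in Old MPP C cells in all 4 (-0.0919 to -0.0499), a difference of 0.164 between the classes. CD135 was lower in Old MPP D cells in all 4 letters (-0.123 to -0.0778) and higher in Old MPP C cells in all 4 (0.00106 to 0.0494), a difference of -0.124. The CD135 difference within MPP C was not called, since its mean of 0.0223 did not exceed its SD of 0.0240. The statistical significance of both differences between the classes was not tested.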

How the results depend on the processing

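No paired analysis was possible because the library labels, whose replicate numbers are shared, map to no column, and no result comes from a test. The number of called proteins depended on the setting most where the age differences of classes were compared. With at least 20 cells the count became 11 for GMP/Neut progenitor A, 7 for Lymphoid A, 4 for Lymphoid B, 15 for Lymphoid C, 6 for MPP A and 9 for MPP B, where fewer letters were left to share a sign. After thinning it was 8, 7 (Lymphoid B), 8 (Lymphoid C), 6 (MPP A) and 5 (MPP B), the first for GMP/Neut progenitor A. In the depth window (800.1 to 3330 ADT counts) it was 3 for Lymphoid B, 7 for MPP A, 5 for MPP B and 14 for MPP C. On log2 of counts per 1000 plus 1 it was 4 for GMP/Neut progenitor B, 1 for Lymphoid B, 8 for Lymphoid C and 6 for MPP B. With medians it was 5 for MPP A and MPP B, and 1 for Lymphoid B with 1 logarithm or when centred on the lineage antibodies. With numbers 1 and 3 alone it was 1 for Lymphoid B, 10 for Lymphoid C and 5 for MPP B. With cell groups weighted equally it was 5 for GMP/Neut progenitor B, 0 for Lymphoid A, 8 for MPP A, 1 for MPP B and 3 for MPP C. Leaving out 1 letter, which makes the rule easier to pass, gave 5 to 12 for GMP/Neut progenitor A, 8 to 17 for GMP/Neut progenitor B, 6 to 11 for Lymphoid A, 3 to 7 for Lymphoid B, 6 to 15 for Lymphoid C, 5 to 11 for MPP A, 4 to 13 for MPP B and 8 to 13 for MPP C. The age difference of MPP D itself gave 5 called proteins in place of 17 with cell groups weighted equally and 12 to 20 under all other settings. Class differences were steadier. The count for MPP B was 1 in place of 3 when centred, in the depth window, on the log2 scale and with medians, and 3 to 5 without 1 letter. The count for Lymphoid B was 0 in the depth window and on the log2 scale and 1 to 2 without 1 letter, and that for Lymphoid C was 7 after thinning. Age differences between classes that turned sign with equal weights were B220 (0.00856) against Lymphoid A, CD117 (-0.0108) and CD34 (0.0316) against MPP C, CD11c (0.0402) against Lymphoid C, CD63 (-0.000265), CD79b (0.00135) and CD86 (0.0289) against GMP/Neut progenitor B, CD79b (-0.0313) against MPP A and CD86 (0.0708) against GMP/Neut progenitor A. After thinning CD11b (0.00326) and NK11 (-0.00434) against Lymphoid A and CD69 (0.0307) against Lymphoid C turned, and NK11 was 0 with medians. CD86 against GMP/Neut progenitor B turned in the depth window (0.00141), on the log2 scale (0.00108) and with medians (0.0100). Of the class differences, CD117 (-0.0456) and CD27 (-0.0394) against MPP A on the log2 scale and CD16-32 against HSC after thinning (-0.00448) turned. With limits higher by 0.1 the share of MPP D cells was 28.3% for CD117+ Sca1+, 28.7% for Sca1+, 71.3% for CD117+ Sca1-, 25.3% for CD117+ Sca1+ CD48+ CD150-, 0.755% for CD117+ Sca1+ CD48+ CD150+ and 2.26% for CD41+. With limits lower by 0.1 it was 45.3% for Sca1+, alone or with CD117+, 54.7% for CD117+ Sca1-, 41.1% for CD117+ Sca1+ CD48+ CD150-, 0 for CD117+ Sca1+ CD48- CD150- and 11.7% for CD41+. After thinning it was 93.6% for CD117+, 16.6% for CD117+ Sca1+, 18.9% for Sca1+, 77.0% for CD117+ Sca1-, 13.2% for CD117+ Sca1+ CD48+ CD150- and 2.64% for CD41+. The MPP D share was 2.62% without the erythroid, MEP and MKP classes, and the Egfp-negative share was 8.47% in letter C alone. Apart from what the settings themselves remove, the cause of these shifts was not tested. With at most 4 MPP D cells in each cell group of numbers 2 and 4, the data limit what can be said of them.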
